A study of Mus musculus with 4 samples.

Results

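Ribosome footprints of 10 genes that control the assembly of microtubules were followed in dorsal root ganglia of the mouse, which hold the cell bodies of sensory neurons next to the spinal cord. The genes were taken by symbol from the deposited footprint table and comprise 6 genes of microtubule-associated proteins (MAPs), Map1b, Map1a, Map2, Map4, Map6 and Mapt, and the 4 stathmin genes Stmn1, Stmn2, Stmn3 and Stmn4. All 10 were present among the 48431 genes of the table, each as 1 row. The 4 libraries form 1 group and came from male wild-type mice of the SW strain given methylglyoxal, a reactive by-product of glycolysis, at 2 mg/kg intraperitoneally for 6 days. Saline is named instead in their protocol text, so the group is called here by its treatment label alone. Neither the age of the mice nor the number of animals behind a library is given in the sources used here. No control libraries were analysed here, so nothing below compares methylglyoxal with its absence.

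MAPs bind along the wall of the microtubule, the tubulin polymer that fills the axon, and stabilise and space it. Stathmins do the opposite: they hold free tubulin and favour disassembly, and phosphorylation releases it again. A sensory neuron of the ganglion carries a long axon with a peripheral and a central branch and extends no dendrites, so its microtubules serve axonal transport over long distances. Ribosome profiling sequences the fragment of mRNA that a ribosome covers, here selected at 28 to 34 nt. The value of a gene therefore tracks how many ribosomes sat on its message.

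The coding sequences show how the families are built and where footprints could be misassigned. The stathmins share most of their coding sequence, from 65.0% identity between Stmn3 and Stmn4 to 73.6% between Stmn2 and Stmn3 over the aligned bases. They differ at the start. Stmn2, Stmn3 and Stmn4 begin with a membrane anchor in which neighbouring cysteines are palmitoylated, whereas stathmin 1 has no such anchor and is cytosolic. The first 90 coding bases (GENCODE M21 transcripts, build GRCm38, sense strand) show this difference, with cysteine codons in capitals:
Stmn1: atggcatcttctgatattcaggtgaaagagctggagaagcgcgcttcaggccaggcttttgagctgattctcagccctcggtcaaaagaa
Stmn2: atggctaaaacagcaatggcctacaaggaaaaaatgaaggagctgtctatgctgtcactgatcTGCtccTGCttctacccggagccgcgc
Stmn3: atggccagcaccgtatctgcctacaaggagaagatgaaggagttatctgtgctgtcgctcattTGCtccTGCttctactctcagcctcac
Stmn4: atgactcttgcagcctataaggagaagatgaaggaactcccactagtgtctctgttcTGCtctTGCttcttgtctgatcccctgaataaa
Each of the anchored members holds 2 cysteine codons in these 30 codons, separated by 1 codon, and Stmn1 holds 0.

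Map2, Map4 and Mapt, which encodes tau, form the other sequence family, defined by repeats that bind tubulin and end in a proline followed by glycines. A CCN codon followed by 3 GGN codons, which spells that ending, was found 4 times in the longest complete coding sequence of Mapt, 3 times in Map4 and 2 times in Map2. The sense strand was searched, in frame. Of 21763 genes with a complete coding sequence, 2.18% held at least 1 match and 0.0505% held at least 3. The 93 bases that end in a match were compared between the genes, and a stretch of Map2 and one of Mapt are shown to make the shared repeat visible, with the codons of the match in capitals. They agreed at 71.0% of bases:
Map2 match 1: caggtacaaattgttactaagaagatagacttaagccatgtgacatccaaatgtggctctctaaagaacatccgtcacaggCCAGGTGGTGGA
Mapt match 3: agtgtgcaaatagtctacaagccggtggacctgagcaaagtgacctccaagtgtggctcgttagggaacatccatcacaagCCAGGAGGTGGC

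For 8 of the 10 genes, hardly any coding sequence could give a footprint that also fits another gene. Of all windows of 28 bases, the shortest footprint selected, 0 occurred in a transcript of another gene for Map1b, Map2, Map4, Map6, Mapt, Stmn3 and Stmn4, and 0.0333% for Map1a. Stmn2 shared 3.14% of its windows (16 of 510), all 16 with Stmn1. The longest run that Stmn1 and Stmn2 share, at bases 262 to 304 of the Stmn1 coding sequence and 364 to 406 of Stmn2, is long enough to hold a whole footprint:
Stmn1 and Stmn2: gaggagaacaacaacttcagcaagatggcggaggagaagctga
Stmn1 stood apart, with 96.4% of its windows (405 of 420) present in another gene's transcripts. Of these, 392 occur in Gm11223, annotated as a processed pseudogene on chromosome 4. Gm11223 was listed at 0 in all 4 libraries, and the treatment of reads with several matches is not given in the sources used here. For that reason the Stmn1 values are uncertain in a way that those of the other members are not.

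The libraries held 2610536 to 3753018 reads, recovered from the step of which nearly all values are whole multiples. Values are in CPM, the reads of a gene for every 1000000 in its library, with no division by length. Replicates 1 and 2 differed by little more than sampling noise, and so did replicates 3 and 4. Chi-square per degree of freedom over genes was 1.03 and 1.05 within these pairs, against 3.27 to 4.01 across them. A pair therefore entered as 1 sample, and means are given ± SD of 2 pair values (n = 2) throughout. Replicates 1 and 2 are called the first pair, and 3 and 4 the second. Nothing in the labels says what sets the pairs apart or whether the libraries came from separate animals, so the spread may be technical. Markers of sensory neurons (13 of 13), myelinating Schwann cells (7 of 7) and satellite glia (5 of 5) all reached a mean of 1 CPM, the limit used for detection. All 7 skeletal muscle markers were detected too, with a summed level of 3555 and 3612 CPM in the first pair and 2197 and 2190 CPM in the second.

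**Figure D1:**
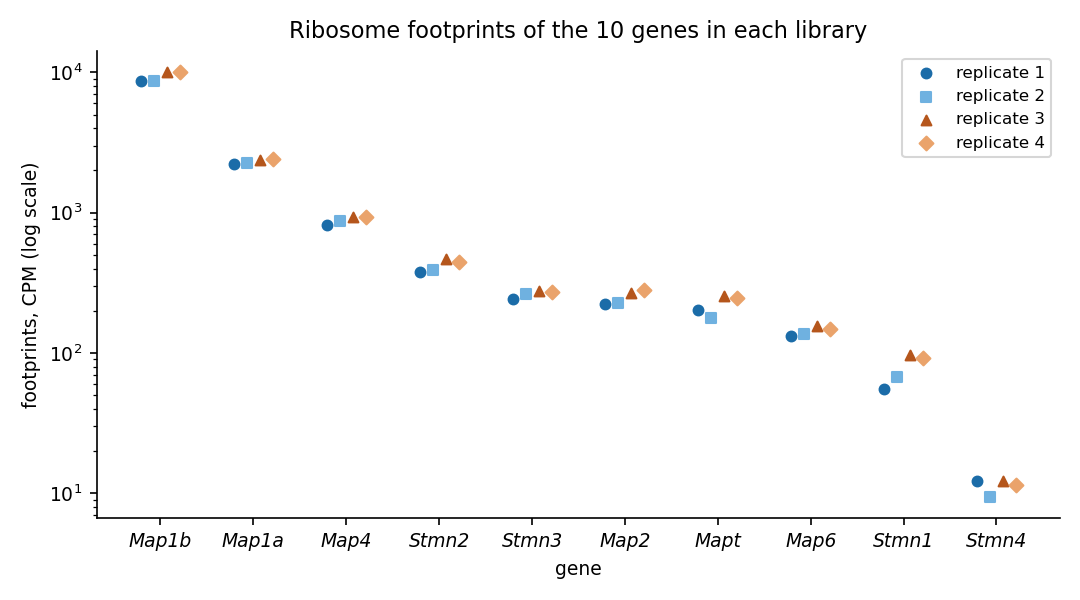
Ribosome footprints of the 10 genes in CPM (log axis), 1 point per library. Map1b averages 9379 CPM and Stmn4 11.4 CPM, and the points of replicates 3 and 4 lie above those of replicates 1 and 2 for every gene except Stmn4. The same holds for 24.6% of detected genes and 44.6% of genes averaging 100 CPM or more.

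Together the 10 genes held 1.30%, 1.31%, 1.49% and 1.49% of all reads in replicates 1 to 4. The 6 MAP genes accounted for 1.32% ± 0.123 of the reads and the 4 stathmins for 0.0772% ± 0.00909. Most of the MAP reads belonged to the MAP1 family, whose members are cut after synthesis into a heavy and a light chain. Map1b, the MAP of growing axons that adult sensory neurons keep, stood at 8683, 8725, 10058 and 10051 CPM, a mean of 9379 ± 955. Its second pair lay above its first without overlap, as was the case for 44.6% of genes averaging 100 CPM or more. By CPM it took rank 3 among the 13787 detected nuclear coding genes with an annotated coding length. Its gene lies at chr13:99421446-99516540 (GRCm38, minus strand) and its longest coding sequence has 7392 bases.

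Map1a, the MAP1 member that prevails in mature neurons, stood at 2215, 2245, 2364 and 2432 CPM (2314 ± 119), again with replicates 3 and 4 above 1 and 2. Its gene lies at chr2:121289600-121310832 (plus strand) and has the longest coding sequence of the set, 9042 bases. Long coding sequences collect more footprints at equal ribosome density, so genes were compared with each other per kb of coding length. On that scale, CPM per kb, Map1b stood at 1269 ± 129 and Map1a at 256 ± 13.1. The difference, Map1b minus Map1a on the scale of log2(CPM per kb + 1), was 2.26, 2.24, 2.38 and 2.33 in the 4 libraries, a mean of 2.30 ± 0.0733 or 4.93-fold. Map1b was the higher in 4 of 4 libraries, and the difference was many times its spread. With each pair as 1 sample, the two-sided exact sign-flip permutation test cannot give a p below 0.5, so no contrast between genes could pass 0.05. Over the 4 libraries taken singly the exact test gave p = 0.125 for this contrast and the other 13, the smallest that 4 values allow, but that treats near-identical libraries as independent.

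In the family of Map2, Map4 and tau, Map4 had the most reads. Map4, the MAP found across most cell types and not confined to neurons, stood at 819, 867, 935 and 928 CPM (887 ± 62.9; chr9:109931460-110083955, plus strand). Mapt, whose protein tau sits mainly in axons, stood at 201, 177, 254 and 247 CPM, a mean of 219.8 ± 43.4 (chr11:104231390-104332090, plus strand). Map2, best known as the MAP of dendrites, stood at 223, 226, 269 and 279.5 CPM, a mean of 249 ± 35.2 (chr1:66175273-66442583, plus strand). In each of the 3 genes the second pair lay above the first without overlap, as it did for 44.6% of genes averaging 100 CPM or more.

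Per kb of the longest coding sequence, Map4 reached 205 ± 14.5, Mapt 97.8 ± 19.3 and Map2 45.5 ± 6.41 CPM per kb. Map4 exceeded Mapt by 1.08 ± 0.184 on the log2 scale and Map2 lay below Map4 by a difference of -2.16 ± 0.0973, each with 1 sign in all 4 libraries. The lead of Map4 over Mapt depended on the coding length: it was 0.19 ± 0.184 with the union of all coding exons, about its own spread, and 2.41 ± 0.185 with the median transcript. The order of Map2 and Mapt turned with the scale. In CPM, Map2 lay above Mapt by a log2 difference of 0.19, whereas per kb it lay below by -1.08 ± 0.0865, with values of -1.12, -0.92, -1.19 and -1.09 in the 4 libraries. The coding lengths used as divisors were 5484 bases for Map2 and 2247 for Mapt. Both genes make proteins of several sizes from alternative exons, and the table does not say which were made. With the median length over the annotated coding transcripts, 1399.5 bases for Map2 and 1143 for Mapt, the difference shrank to -0.10 and no longer had 1 sign in all libraries. Map4 is the member whose density depended most on this choice: it came to 108 CPM per kb with the union of all coding exons and to 1020 with the median transcript.

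Map6, which encodes the protein that keeps neuronal microtubules stable in the cold, stood at 133, 136, 156 and 149 CPM (143 ± 12.5; chr7:99267447-99337137, plus strand). Its libraries again separated by pair. Per kb it reached 52.7 ± 4.58 and lay below Mapt by -0.87 ± 0.163 on the log2 scale, in 4 of 4 libraries. Per kb of the longest coding sequence it exceeded Map2 in all 4 libraries, by factors of 1.07 to 1.21. This order reversed in CPM, at 143 for Map6 and 249 for Map2, and with the median transcript, at 84.1 and 178 CPM per kb.

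**Figure D2:**
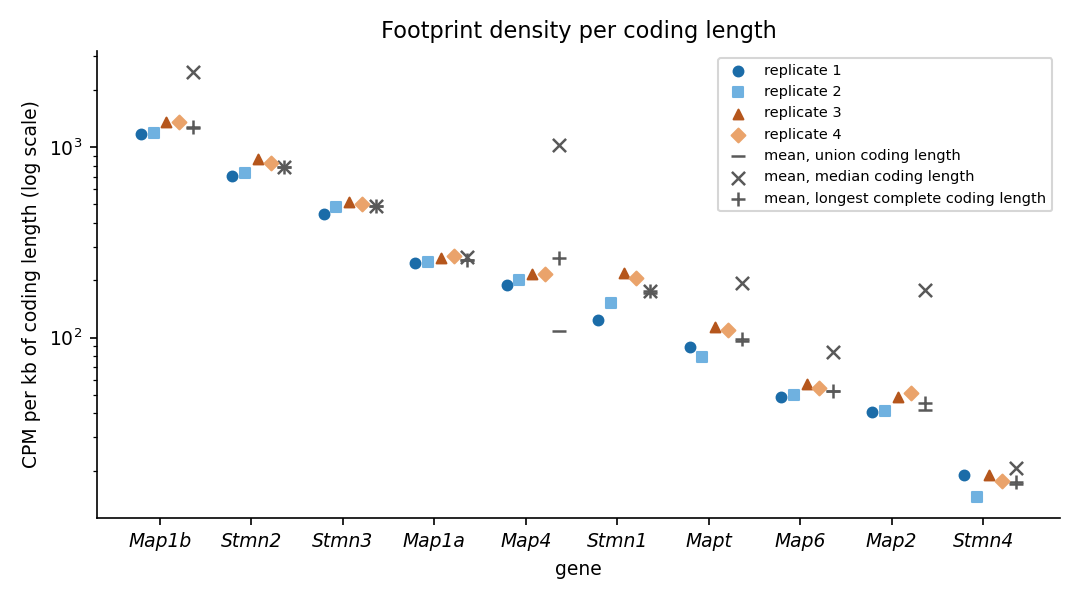
CPM per kb of the longest coding sequence (log axis) for the 10 genes in each library, with the mean under 3 other coding lengths in grey beside them. Map1b, Stmn2 and Stmn3 lead by the longest coding sequence, and Map4 spreads most over the coding lengths.

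The stathmins have short coding sequences of 447 to 648 bases. Each of them ranked higher among the 13787 detected coding genes per coding length than by reads alone. Stmn2, also called SCG10 and found in the growing and regenerating axons of neurons, stood at 376, 391, 466 and 445 CPM, a mean of 419.5 ± 50.8 (chr3:8509360-8561606, plus strand). Divided by its 537 coding bases this came to 781 ± 94.6 CPM per kb, rank 60 among the 13787 genes. Stmn3, the related neuronal stathmin also called SCLIP, stood at 241, 263, 278 and 272 CPM, a mean of 263 ± 16.1 (chr2:181306459-181314500, minus strand). Its density was 488 ± 29.8 CPM per kb, rank 126. Stmn2 exceeded Stmn3 by 0.67 ± 0.0860 on the log2 scale of CPM per kb, 1.60-fold, in all 4 libraries.

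Stmn1, the cytosolic stathmin of dividing and many other cells, stood at 55.6, 67.6, 97.3 and 91.9 CPM, a mean of 78.1 ± 23.3 (chr4:134468320-134473843, plus strand). Its first pair lay well below its second. Per kb it reached 175 ± 52.2, below Stmn2 by a log2 difference that narrowed from 2.37 in the first pair to 2.00 in the second. Stmn4, the brain stathmin also called RB3, was the lowest member at 12.3, 9.49, 12.3 and 11.5 CPM, a mean of 11.4 ± 0.670 (chr14:66344296-66361680, plus strand). These values rest on 43, 25, 32 and 43 reads, and the exact Poisson 95% interval in replicate 2 ran from 6.14 to 14.0 CPM, which covers counting error only. The pairs overlapped for Stmn4, the single member for which they did. Stmn2 exceeded Stmn4 42.2-fold per kb, 5.40 ± 0.0872 on the log2 scale.

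By CPM per kb the order was Map1b, Stmn2, Stmn3, Map1a, Map4, Stmn1, Mapt, Map6, Map2 and Stmn4. Of the 9 pairs of neighbours in this order, 8 kept it in every library with a mean difference larger than its SD. Map4 and Stmn1 did not differ beyond their spread (0.27 ± 0.337 on the log2 scale, Map4 higher in 3 of 4 libraries). Map1a and Map4 changed places when Map4 was divided by its longest complete coding sequence of 3375 bases, at 256 and 263 CPM per kb. With the union of coding exons Stmn1 passed Map4, at 171 and 108 CPM per kb. With the median transcript Map4 moved to rank 2, above Stmn2 and Stmn3, and Mapt (192) and Map2 (178) passed Stmn1 (176). Of the 9 pairs of neighbours, 6 then kept the order above in every library. Over the 10 genes the median was 7.55 on the scale of log2(CPM per kb + 1), beside 3.59 over the 13787 detected coding genes. Ranks ran from 31 for Map1b to 2366 for Map2, and Stmn4 stood at rank 5185.

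Within the families, the shares of reads are free of library size. Map1b took 70.7%, 70.5%, 71.7% and 71.4% of the MAP reads in replicates 1 to 4, and Map1a 18.0%, 18.1%, 16.8% and 17.3%. The share of Map1b was thus slightly larger in the second pair and that of Map1a slightly smaller, without overlap. Among the reads of the MAP1 genes alone, Map1a held 20.3% (Wilson 95% interval 19.9 to 20.7) in replicate 1 and 19.0% (18.6 to 19.5) in replicate 3. Map4 followed with 6.73% ± 0.149 of the MAP reads, Map2 with 1.89% ± 0.0910, Mapt with 1.66% ± 0.175 and Map6 with 1.09% ± 0.00659.

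Stmn2 took 54.9%, 53.5%, 54.6% and 54.3% of the stathmin reads, so its share hardly moved. Stmn1 took 8.11%, 9.25%, 11.4% and 11.2%, higher in the second pair without overlap, while Stmn3 took 35.2%, 35.9%, 32.6% and 33.1%, lower in the second pair. In replicate 1 the Wilson 95% interval of the Stmn1 share was 7.09% to 9.28%, and in replicate 4 it was 10.1% to 12.4%. In replicate 2 it was 8.03% to 10.6%, which overlaps the interval of replicate 4. With Stmn1 left out for its pseudogene, Stmn2 took 59.3% of the remaining stathmin reads in the first pair and 61.4% in the second. Reads are not independent molecules, so these intervals cover counting error only.

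**Figure D3:**
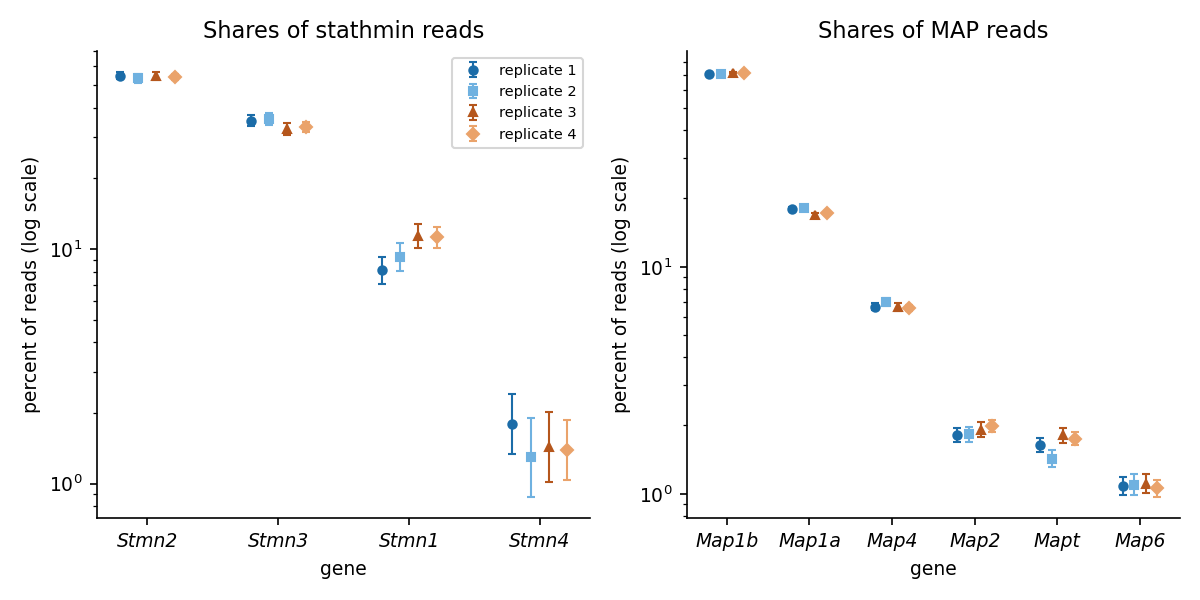
Shares of the stathmin reads (left) and of the MAP reads (right) in percent on log axes, 1 point per library with its Wilson 95% interval. Stmn2 stays near 54% while Stmn1 lies at 8.11% and 9.25% in replicates 1 and 2 and above 11% in replicates 3 and 4.

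Between the pairs, 9 of the 10 members were higher in both libraries of the second pair than in both of the first. The background for such a separation was high: 24.6% of the 15279 detected genes lay higher in this way, and 44.6% of the 1495 genes averaging 100 CPM or more, to which 8 of the members belong. The median member differed by 0.19 on the scale of log2(CPM + 1), second minus first pair, beside 0.00 over all detected genes and 0.05 over those of at least 100 CPM. The Map1b libraries differed by at most 0.0069 within a pair and by 0.21 between them, 1.16-fold. The difference was 0.10 for Map1a, 0.15 for Map4, 0.18 for Map6, 0.29 for Map2 and 0.41 for Mapt. Among the stathmins it was 0.13 for Stmn3, 0.25 for Stmn2 and 0.62 for Stmn1, and 0.12 for Stmn4. With 2 libraries against 2 the smallest two-sided exact permutation p is 0.333, so no test of these differences could pass, and the pairs are not groups of the study.

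Other genes moved between the pairs as well. The neuronal tubulin gene Tubb3 differed by 0.03 and the neurofilament gene Nefl by 0.01 on the same log2 scale, and the 13 sensory neuron markers had a median of 0.04 with 7 higher and 2 lower without overlap. All 7 skeletal muscle markers were lower in the second pair, with a median of -0.56, beside 23.4% of detected genes that were lower without overlap. Myelinating Schwann cell markers had a median of 0.00, with 3 of 7 higher and 2 lower without overlap. The mitochondrial 16S rRNA gene mt-Rnr2 stood at 134592 and 132426 CPM in the first pair and at 109753 and 107896 in the second. With the reads of nuclear coding genes as the denominator, 9 of 10 members lay higher in the second pair, beside 21.1% of detected genes. Among genes averaging 100 CPM or more, to which most members belong, the share was 44.6% in CPM and was not counted under this denominator. The part of muscle RNA, mt-Rnr2 or Schwann cell RNA in the members' difference was not tested. In such whole-tissue libraries, fewer cells of a type and less RNA per cell cannot be told apart.

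**Figure D4:**
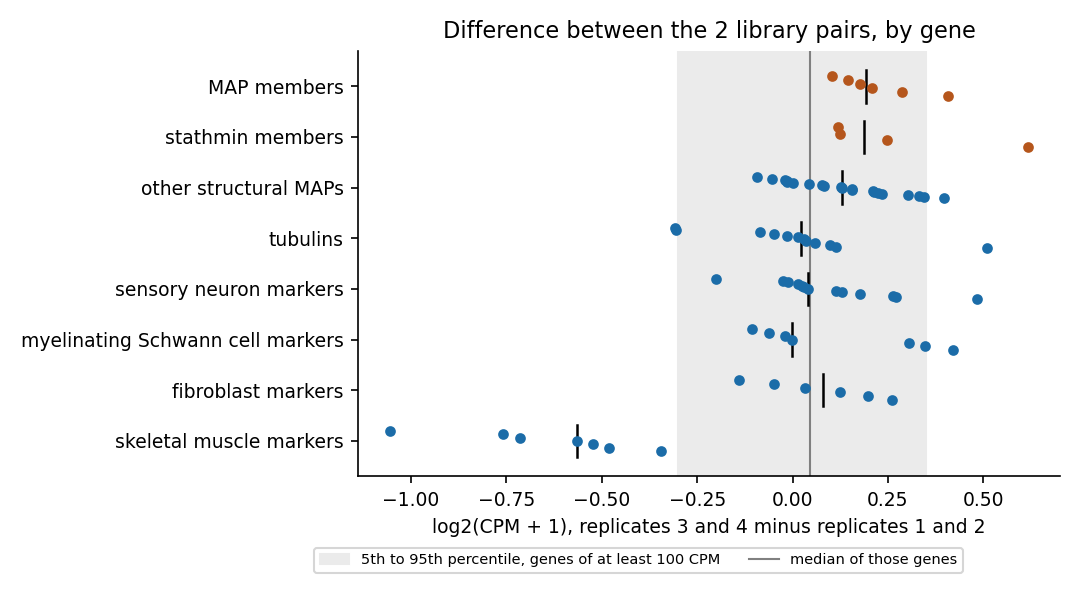
Difference in log2(CPM + 1) between replicates 3 and 4 and replicates 1 and 2, 1 point per gene, with the median of each list as a black line. The 10 members all lie to the right of 0.10, the sensory neuron markers centre on 0.04 and the skeletal muscle markers on -0.56.

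Set against tubulin, the substrate of both families, the MAPs reached a summed density of 51.7%, 51.4%, 57.4% and 57.6% of the 12 tubulin genes in replicates 1 to 4, each summed in CPM per kb. The stathmins reached 37.3%, 39.5%, 45.2% and 43.5%. Both ratios were higher in the second pair without overlap. The 12 tubulin genes had a median difference of 0.02 on the scale of log2(CPM + 1). The ratios thus contain the members' own difference between the pairs and are no separate result. Map1b alone came to 35.9% ± 2.94 of the tubulin density and Stmn2 alone to 22.1% ± 2.24. Tubb3 was the densest tubulin gene at 1323 ± 20.3 CPM per kb, beside 1269 ± 129 for Map1b. Tuba8 was the lowest at 4.43 ± 1.02. Sequence shared among tubulin genes was not counted, so the single tubulin values may include reads of their copies.

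Other genes of the microtubule system were mostly detected (118 of 125). Other structural MAPs (21 of 23 detected) had a median of 4.36 on the scale of log2(CPM per kb + 1). They were led by Tppp3, a tubulin polymerisation factor, at 951 ± 99.0 CPM per kb, between Map1b and Stmn2. Mtus2 was the lowest detected at 1.04 ± 0.0190. Of the 21, 12 lay higher in the second pair and 0 lower without overlap, where 24.6% of all detected genes lay higher and 23.4% lower. The same shares are the background for the counts of the lists that follow. Plus-end tracking genes (14 of 14), whose proteins ride on growing microtubule ends, had a median of 5.39, led by Clip3 at 205 ± 9.28 CPM per kb, with Slain1 lowest at 2.54 ± 0.183. Of these, 5 lay higher in the second pair and 1 lower.

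Genes that nucleate microtubules, cap the minus end or sever the lattice were all detected (17 of 17) but low, with a median of 3.16, near the 3.59 of coding genes at large. Camsap2, which protects minus ends, led at 19.3 ± 0.469 CPM per kb and Katnal2, of the katanin family of severing enzymes, was lowest at 0.648 ± 0.168. Depolymerising kinesins were lower still, with a median of 1.10 over 5 of 6 members. Kif2a stood at 27.2 ± 1.12 CPM per kb and Kif24 at 0.387 ± 0.249, and Kif2b was listed at 0 in all 4 libraries. These pathways counted 4 higher and 3 lower, and 1 higher and 1 lower, between the pairs.

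Enzymes that modify or fold tubulin had a median of 3.80 over 21 of 25 detected members. Ttl, the ligase that restores the terminal tyrosine of alpha-tubulin, led at 176 ± 29.2 CPM per kb. It went the other way from the members, at 221 and 224 CPM in the first pair and 167 and 185 CPM in the second. Ttll3 was the lowest at 0.433 ± 0.117, and 7 of the 21 lay higher and 3 lower, beside 24.6% and 23.4% of detected genes. Kinases and phosphatases that act on MAPs and stathmins (28 of 28 detected) had a median of 5.32, with Mapk3, the ERK1 kinase, first at 497 ± 8.14 CPM per kb and Mark4, a kinase that phosphorylates MAPs, last at 7.36 ± 1.63. In this list 14 of 28 lay higher and 4 lower in the second pair, beside 24.6% and 23.4% of detected genes, and 44.6% higher among genes of at least 100 CPM.

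**Figure D5:**
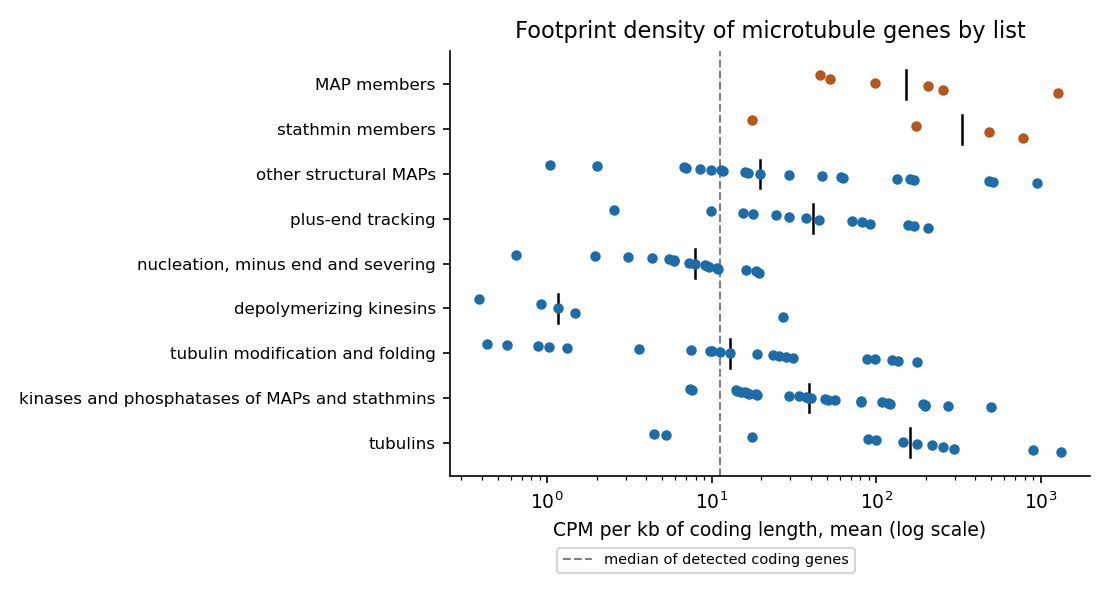
CPM per kb of coding length (log axis) of the detected genes of each microtubule list, 1 point per gene with the list's median as a black line and the median of detected coding genes dashed. Map1b and the stathmins Stmn2 and Stmn3 reach the range of the leading tubulins, whereas the nucleation and kinesin lists stay at or below 27.2.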

How the data were processed

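The submitters' processing notes name Cufflinks (2.2.1), Bowtie2 (2.2.9), TopHat2 (2.1.1) and FastQC (0.11.5), and the build GRCm38.p4 (mm10). Annotation, strand setting and treatment of reads with several matches: none is given in the sources used here. Footprints passed spin columns, rRNA depletion and a gel selection of 28 to 34 nt, per the labels' protocols.

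The deposited columns are named for TPM, but behave as CPM: the authors' deposited values sum to 1000000 and 96.5% to 97.0% of those above 0 were whole multiples, within 0.02 steps, of 1 step per library. This share was 96.4% to 96.7% in the fifth of genes with the shortest coding sequence and 96.8% to 97.3% in the longest. The step gave 3487636, 2633868, 2610536 and 3753018 reads. A count of 0 reads allows up to 3, or 0.799 to 1.15 CPM, for counting error only. All value columns were mapped to samples.

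Coding lengths came from GENCODE M21, in which 48052 of the gene IDs were found, and the longest annotated one was the main choice. This assumes that footprints fall in coding sequence; the table cannot show whether they do. A pseudocount of 1 was used on the log2 scale, and a mean of at least 1 CPM called a gene detected. Libraries with a chi-square per degree of freedom under 1.5, over genes with at least 20 reads, counted as 1 sample. Contrasts between members (14) were tested by an exact sign-flip permutation test over libraries, which the pairing of libraries leaves without independent values. With 1 group, no count test between conditions could be made. Named genes were the 10 members, the highest and lowest detected gene and those at 0 of each microtubule list, and the 3 nearest in pattern to Map1b and Stmn2; markers and other genes are named for context. Members and lists were chosen with earlier results of these data known. Steps were tested on simulated data. Python 3.11.15, numpy 2.4.6, pandas 2.3.3, scipy 1.17.1, matplotlib 3.10.9 and Biopython 1.88 were used. Some items are not reported here.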

Additional observations from a re-analysis of the deposited data

How the results depend on the processing

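No paired analysis between conditions was possible because the libraries form 1 group. The contrasts between members were taken within each library. The median of the 10 members, 7.55 on the scale of log2(CPM per kb + 1), came to 7.08 with the union of coding exons, 7.83 with the median transcript and 7.91 with nuclear coding reads as the denominator. Of the 182 values that the 14 contrasts took over 13 other settings, 181 kept their direction. The exception was Map2 minus Mapt, 0.19 when not divided by coding length. Only the settings that changed or dropped the coding length could have turned a direction. Every contrast had 1 sign in all 4 libraries, so the other denominator, the pseudocounts and fewer libraries could not turn one. Leaving out 1 replicate in turn moved the second minus first pair difference of Stmn4 between -0.053 (without replicate 2) and 0.29. The count of members higher in the second pair was 9 under the other denominator, beside 21.1% of detected genes. It was 9 to 10 without 1 replicate, beside 37.0% to 38.0% of detected genes. For genes averaging 100 CPM or more, to which most members belong, the share was 44.6% in CPM over all libraries. That share was not counted under these settings. The pseudocount does not enter the count of members, and leaving out a replicate cannot lower it. The pairs alone, the longest complete coding length, the minimum of 100 CPM and leaving out replicates for the pair difference were chosen after seeing the data. Depth limits Stmn4 above all, with 25 to 43 reads per library.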

Other observations

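The genes whose values followed the members most closely over the 4 libraries were not all neuronal. Among 1494 other genes averaging 100 CPM or more, the deviations of log2(CPM + 1) nearest to those of Map1b, by Euclidean distance, were those of Itfg1 (0.0117), the lysosomal protease gene Ctsb (0.0124) and the type I collagen gene Col1a1 (0.0148). Col1a1 stood at 8274, 8398, 9549 and 9574 CPM, close to Map1b in level as well. Nearest to Stmn2 were the semaphorin gene Sema5a (0.0203), Ank3 (0.0252), which encodes the ankyrin of the axon initial segment and nodes, and Cplx1 (0.0312), which encodes a regulator of synaptic vesicle release. With 4 libraries in 2 pairs, such likeness rests mainly on 1 difference, that between the pairs.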
